A study of Homo sapiens with 6 samples.

Results

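Messenger RNA of 9 genes that carry growth factor signals into neural crest cells was followed in a neuroblastoma cell line: the receptor tyrosine kinases ALK, NTRK2, NTRK3 and RET, the receptors NGFR, GFRA2 and GFRA3, and the secreted ligands PTN and MDK. They were chosen by symbol for their function, not by their values, and are 9 of the 36601 genes in the deposited matrices. All cells belonged to the human neuroblastoma line SK-N-BE(2)-C, an established line, so every group is a model of 1 line in culture. Single cells were captured with barcoded beads in small wells (Seq-Well S3), and transcripts were counted as unique molecular identifiers (UMIs), 1 per captured molecule. There were 2 libraries each of cells given DMSO as solvent control, TSA (short for trichostatin A, which blocks the enzymatic activity of histone deacetylases) or E6R, a compound known here only by its code name. The study's title names an inhibitor of the histone deacetylase complex that does not act on its enzyme, and the design asks what each compound does to the transcriptome. The sources used here give no doses or treatment times and no structure for E6R.

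Neuroblastoma arises from sympathoadrenal precursors of the neural crest, which depend on these signals during development. Neurotrophins bind the TRK kinases and the p75 receptor NGFR. Ligands of the GDNF family bind a GFRA coreceptor anchored in the membrane, and the pair then engages RET. ALK is the receptor kinase most often altered in neuroblastoma, and pleiotrophin (PTN) and midkine (MDK) are heparin-binding growth factors with several receptors, for which ALK has also been proposed. High NTRK2 is a known feature of aggressive neuroblastoma.

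The libraries held 1861 to 3946 cells each after barcodes with under 500 genes or over 20% mitochondrial UMIs were left out, 17589 in all, with 4206366 to 26180262 UMIs in those cells. Median depth ran from 1053.5 to 1880 UMIs per cell, and the 1% of cells with most UMIs held 8.95% to 22.9% of a library's UMIs. Mitochondrial transcripts made up 5.83% to 9.71% of UMIs in the DMSO and TSA libraries and 1.51% and 1.55% in the E6R libraries. Any 2 libraries shared 11 to 58 barcodes among their cells, and 299 cells had a barcode that was also kept in another library. All 12 adrenergic neuroblastoma markers, PHOX2A and DBH among them, were detected in every library. Levels are given as CPM, the UMIs of a gene per 1000000 UMIs of the library, with library size scaled by TMM. Tests are edgeR's quasi-likelihood test over 16763 genes with Benjamini-Hochberg adjusted p-values, called at 0.05. Each group has 2 libraries, and nothing in the labels says whether they came from separate cultures, so the spread may be technical. UMI totals of different genes say how precisely each was measured and not which transcript was more abundant, because capture at the 3' end differs from gene to gene.

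NGFR rose and GFRA2 fell under TSA, and both lay near their DMSO levels under E6R. Of the 9 genes, 2 passed the test for TSA against DMSO, where 29.7% of all genes tested did (16.2% higher and 13.5% lower). None of the 9 passed for E6R against DMSO by edgeR, where 0% of the 16763 genes did. At an unadjusted p under 0.05 that comparison had 2913 genes, 2 of them from the set (NTRK2 and NTRK3). DESeq2 called 415 genes there and none of the 8 set genes to which it gave an adjusted p. For E6R against TSA 4 of the 9 passed, NGFR and ALK lower and GFRA2 and PTN higher under E6R, against 38.2% of all genes (18.7% higher and 19.5% lower). The share of mitochondrial UMIs moved with E6R. With the mitochondrial genes left out 3, 0 and 4 of the 9 genes were called in these comparisons, PTN being the gene added for TSA. Over all 16705 genes tested in that setting, 4907, 1 and 6383 were called. The 3 comparisons share libraries and are not independent of each other. The median log2 fold change of the 9 genes was -0.89 for TSA against DMSO, 0.13 for E6R against DMSO and 0.47 for E6R against TSA, and over all genes tested it was -0.01, 0.03 and -0.09. The CPM of the libraries did not overlap between groups for 7, 3 and 7 of the 9 genes in these comparisons, which 71.3%, 47.3% and 72.6% of all genes also met.

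**Figure D1:**
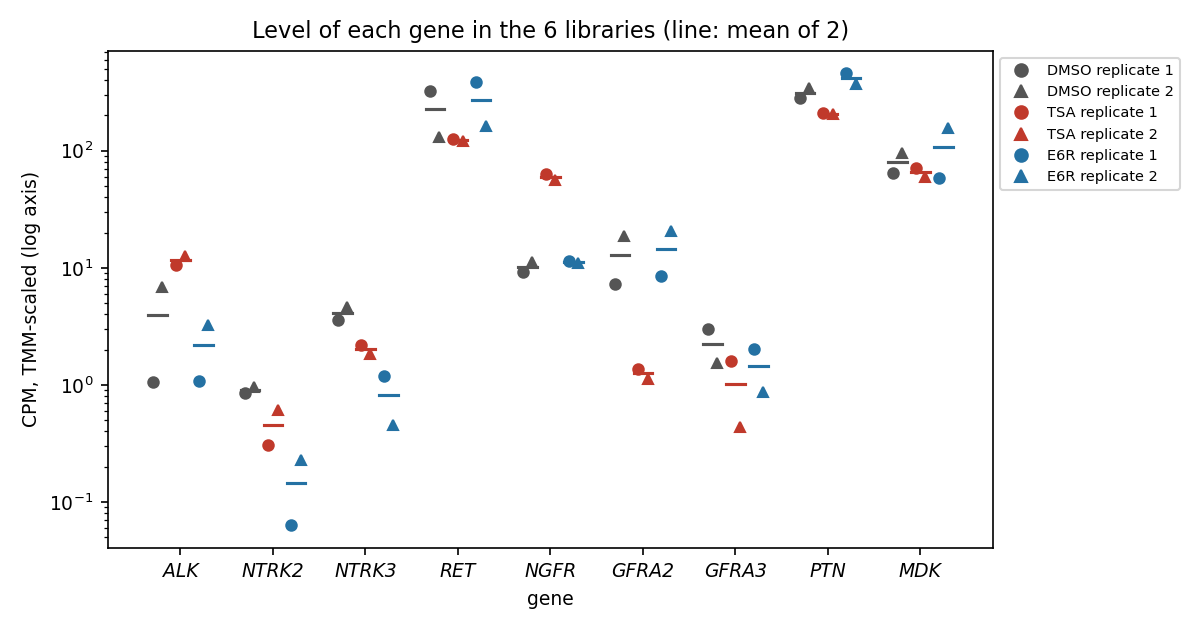
CPM (TMM-scaled, log axis) of each of the 9 genes in the 6 libraries; circles are replicate 1, triangles replicate 2 and lines the mean of 2. Both TSA libraries lie above all others for NGFR (63.5 and 55.7) and below all others for GFRA2 (1.37 and 1.13).

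Among the receptor kinases, RET, which signals for the GDNF family, was counted with 691 to 6060 UMIs per library. The gene lies on chromosome 10 (GRCh38, 43077027 to 43130351, plus strand, GENCODE 29), and no other annotated gene overlaps it. Its level was 326 and 132 CPM in DMSO replicates 1 and 2, 127 and 121 CPM in the TSA replicates, and 383 and 164 CPM in the E6R replicates. Both TSA libraries were the lowest of the 6, but DMSO replicate 2 lay only just above them. The log2 fold change was -0.89 (SE 0.48, adjusted p = 0.193) for TSA against DMSO, 0.25 (SE 0.47, adjusted p = 0.813) for E6R against DMSO and 1.15 (SE 0.48, adjusted p = 0.094) for E6R against TSA, and none passed. The first was -0.06 (adjusted p = 0.947) without DMSO replicate 1 and -1.48 (adjusted p = 0.0692) without DMSO replicate 2. The last passed in 7 of 20 alternative analyses, and its adjusted p ran from 4.32e-07 to 0.417 over them.

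The spread of RET within DMSO and within E6R was as large as any treatment difference, and it followed the replicate number. Replicate 1 over replicate 2 was 2.47 for DMSO and 2.33 for E6R, against 1.05 for TSA. Summed levels of endothelial and fibroblast markers moved with the same number. The 3 endothelial markers (PECAM1, CDH5, VWF) summed to 49.5 and 4.02 CPM in the DMSO replicates, 11.5 and 4.53 in the TSA replicates and 65.6 and 1.88 in the E6R replicates. The 5 fibroblast markers (DCN, LUM, COL1A1, COL1A2, PDGFRB) summed to 98.6 and 25.1, 125 and 78.4, and 255 and 27.3 CPM, and no gene of either list was at 0 in any library. DCN, LUM and COL1A1 were higher in replicate 1 of each treatment, with DCN at 56.9 and 1.91 CPM under DMSO and 165 and 1.92 under E6R. COL1A2 (0.85 and 5.36 CPM) and PDGFRB (5.74 and 6.12 CPM) were lower in replicate 1 under DMSO. With every cell that held a UMI of these 8 genes left out (142 to 1302 cells a library, 4.53% to 45%), RET was 329 and 146 CPM of plain UMI sums under DMSO, 106 and 99.2 under TSA, and 345 and 163 under E6R. Replicate 1 was again above replicate 2 under DMSO and E6R in the remaining cells. The cells left out held unequal parts of the UMIs: E6R replicate 1 kept 3947746 of 15781024, and DMSO replicate 2 kept 4484312 of 4793493. A shallow cell that expresses these genes can lack such a UMI and stay in, so the part of cell mixture was not tested. Which cells these UMIs came from was not tested either, and 1 such UMI does not make a cell endothelial or a fibroblast. This alternative was added after the data were seen.

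**Figure D2:**
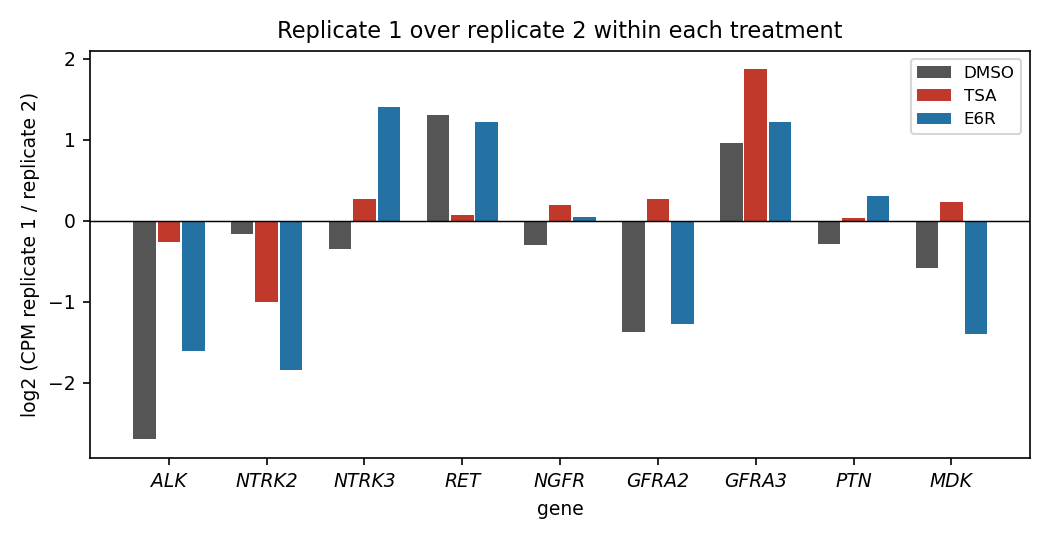
Log2 ratio of replicate 1 to replicate 2 (CPM) within each treatment, for the 9 genes. For RET, GFRA2 and ALK the DMSO and E6R bars point the same way (1.30 and 1.22, -1.38 and -1.27, -2.70 and -1.61), and the TSA bars are small (0.07, 0.27 and -0.26).

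ALK, on the minus strand of chromosome 2 (29192774 to 29921566), had few UMIs. There were 5 and 36 in the DMSO libraries, 139 and 145 in the TSA libraries, and 17 and 87 in the E6R libraries. These counts gave 1.06 and 6.89, 10.6 and 12.6, and 1.07 and 3.27 CPM. Both TSA libraries were above the other 4, and the DMSO and E6R libraries overlapped. The difference between TSA and DMSO did not pass (log2 fold change 1.53, SE 0.78, adjusted p = 0.173). It passed in 3 of 20 alternatives, among them the fit with a term for the replicate number (1.86, adjusted p = 0.0207), though no label says what that number marks. Without DMSO replicate 1 it was 0.79 (adjusted p = 0.453), and without DMSO replicate 2 it was 3.36 (adjusted p = 0.0461), so either control library moved it. Without the low-count filter it was 1.45 (adjusted p = 0.0254). With all libraries thinned to the total of the smallest it was 1.58 (adjusted p = 0.11), and in cells of at least 1000 UMIs, each thinned to 1000, it was 0.16 (adjusted p = 0.888). ALK was lower under E6R than under TSA (log2 fold change -2.38, SE 0.77, adjusted p = 0.041). That call was lost without TSA replicate 1 or 2 (adjusted p = 0.123 and 0.173), without E6R replicate 1 (-1.75, adjusted p = 0.08; -3.4 without E6R replicate 2, adjusted p = 0.0104), with at most 10% mitochondrial UMIs per cell (0.0514) and without the 5% of cells with most UMIs (0.0702). For E6R against DMSO the log2 fold change was -0.86 (SE 0.79, adjusted p = 0.607), and it became 1.09 (adjusted p = 0.6) without DMSO replicate 2.

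The other 2 kinases were near the limit of detection. NTRK3, the receptor for neurotrophin-3, had 17 and 24 UMIs under DMSO, 29 and 21 under TSA and 19 and 12 under E6R. With the depth of the libraries this was 3.61 and 4.59, 2.2 and 1.83, and 1.2 and 0.451 CPM, so the treated libraries lay below both controls and the E6R libraries below both TSA libraries. The log2 fold change for E6R against DMSO was -2.34 (SE 0.61, unadjusted p = 0.00521, adjusted p = 0.205), and it passed in 1 of 19 alternatives, the one without a low-count filter (-2.17, adjusted p = 0.0353). In small barcodes, those with under 500 genes, NTRK3 was at 18.2 and 6.61 CPM under DMSO, 7.18 and 5.69 under TSA and 3.49 and 3.84 under E6R. Those values exceeded the plain-sum CPM of the cells in every library. NTRK2, the BDNF receptor, had 4 and 5 UMIs under DMSO, 4 and 7 under TSA, and 1 and 6 under E6R, or 0.85 and 0.956, 0.304 and 0.609, and 0.0632 and 0.226 CPM. With so few molecules no fold change is read from it. Its adjusted p was 0.405 for TSA and 0.235 for E6R against DMSO. NTRK3 overlaps NTRK3-AS1 on the other strand of chromosome 15, and the sources used here give no strand setting for the counting, so the reads of the pair cannot be told apart. The same limit holds for the genes on the other strand of ALK (AC106870.2 and AC106870.1), of PTN (RF00136 and AC078842.2) and of NGFR.

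NGFR, the p75 neurotrophin receptor, showed the clearest difference of the 9 genes. It lies on the plus strand of chromosome 17 (49495293 to 49515017) and overlaps MIR6165 on the same strand and AC015656.1 and AC006487.1 on the other. Its level was 9.14 and 11.3 CPM under DMSO, 63.5 and 55.7 CPM under TSA, and 11.4 and 11 CPM under E6R. The TSA libraries were far above the other 4, which all lay close together. The DMSO mean was 10.2 ± 1.52 CPM (SD, n = 2), the TSA mean 59.6 ± 5.5 and the E6R mean 11.2 ± 0.292. NGFR rose 5.83-fold under TSA (log2 fold change 2.54, SE 0.24, edgeR adjusted p = 0.000922) and was 5.31-fold lower under E6R than under TSA (-2.41, SE 0.23, adjusted p = 0.000494). Both calls held in 20 of 20 alternatives. For E6R against DMSO the difference was 0.13 (SE 0.24, adjusted p = 0.803). Its sign changed to -0.5 (adjusted p = 0.484) without the 5% of cells with most UMIs, to -0.5 (adjusted p = 0.47) without cells holding an endothelial or fibroblast UMI, and to -0.21 in cells thinned to 1000 UMIs. NGFR is also carried by Schwann cells. Of the 6 Schwann markers, SOX10 was at 0 in 4 libraries and at most 0.261 CPM in the other two, and the sum over the list was 17.6 and 11.3 CPM under DMSO, 21.3 and 13.9 under TSA, and 20.7 and 14.6 under E6R. The 8 markers of the mesenchymal neuroblastoma state summed to 1190 and 753, 3286 and 2191, and 2054 and 1322 CPM. Of their 7 tested genes, VIM (log2 fold change 1.46, adjusted p = 0.0113) and NOTCH2 (3.0, adjusted p = 0.0192) rose under TSA, and are named because they were the ones called; 29.7% of all genes tested were called. VIM made up most of the sum (977 and 696 CPM under DMSO, 2840 and 1760 under TSA), and CD44 had a lower mean under TSA (16.5 against 49 CPM, log2 fold change -1.56, adjusted p = 0.0768). Their part in the NGFR result was not tested.

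More cells carried an NGFR molecule under TSA. In cells of at least 1000 UMIs thinned to 1000, the share with an NGFR UMI was 0.927% and 0.892% under DMSO, 4.81% and 4.27% under TSA and 0.773% and 0.853% under E6R. The exact 95% binomial interval was 3.88% to 5.88% in TSA replicate 1, and the highest upper bound among the 4 other libraries was 1.65%. These intervals cover counting error only. Without thinning the shares were 1.93% and 1.85%, 17.8% and 12.3%, and 3.56% and 3.14%, at unequal depth. Thinning used 1187 and 1682 DMSO, 1852 and 2789 TSA and 2199 and 2228 E6R cells and left out 674 and 1450, 615 and 503, and 692 and 1718 shallower ones. The mean share under TSA exceeded that under DMSO by 3.63 percentage points. With 2 libraries against 2, an exact two-sided permutation test cannot give less than p = 0.333. No cell type that should lack NGFR was at hand to set the background from free RNA. In small barcodes NGFR was at 4.88 and 17.2 CPM under DMSO, 43.8 and 38.2 under TSA and 10 and 12.1 under E6R, the same order of groups as in the cells.

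**Figure D3:**
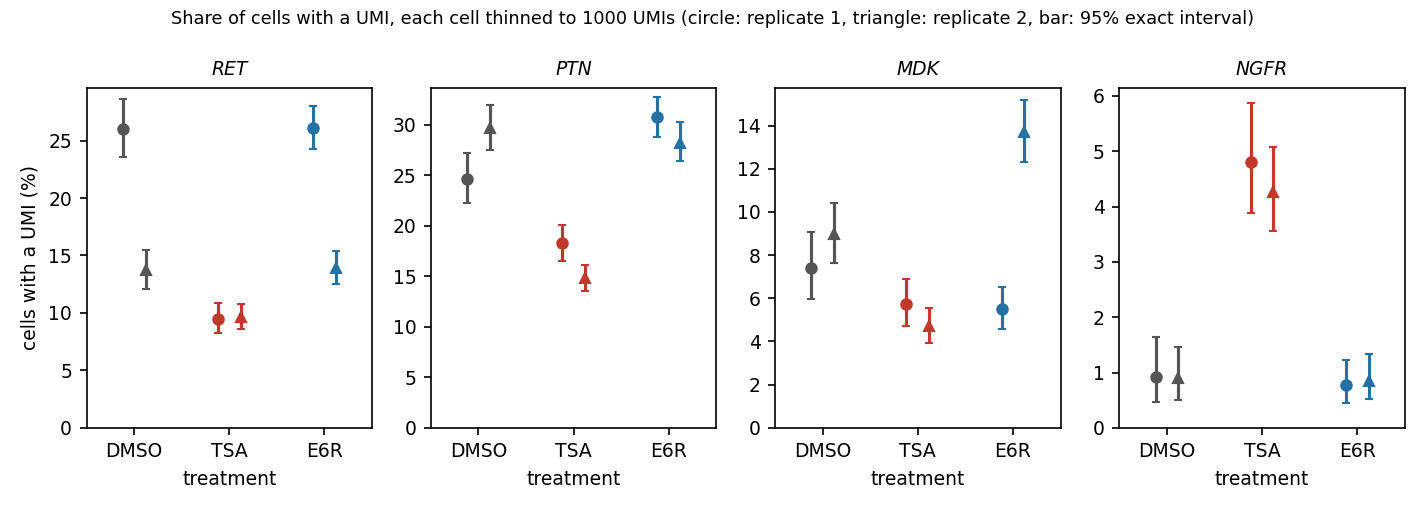
Share of cells with a UMI (%), each cell thinned to 1000 UMIs, for RET, PTN, MDK and NGFR by treatment; circles are replicate 1, triangles replicate 2 and bars exact 95% binomial intervals. NGFR lies between 4.27% and 4.81% under TSA and below 1% in the other 4 libraries, and RET is at about the same share in replicate 1 of DMSO and E6R (26% and 26.1%).

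GFRA2, the coreceptor that presents neurturin to RET, fell under TSA. The gene is on chromosome 8. It had 34 and 98 UMIs under DMSO, 18 and 13 under TSA and 135 and 547 under E6R, which gave 7.22 and 18.7, 1.37 and 1.13, and 8.53 and 20.6 CPM. Both TSA libraries lay well below the rest, while under DMSO and E6R replicate 1 was below replicate 2 (ratios 0.385 and 0.414). The fall under TSA was 10.3-fold (log2 fold change -3.37, SE 0.63, adjusted p = 0.00737). The call was kept in 18 of 20 alternatives and lost without TSA replicate 1 (-3.48, adjusted p = 0.0573) or TSA replicate 2 (-3.2, adjusted p = 0.0726). The fall was smaller without DMSO replicate 2 (-2.6, adjusted p = 0.0372) and was -4.83 (adjusted p = 0.0104) in cells thinned to 1000 UMIs, on 1 positive cell in each TSA library. GFRA2 was 11.6-fold higher under E6R than under TSA (log2 fold change 3.53, SE 0.62, adjusted p = 0.00392), in 20 of 20 alternatives, with 2.77 without E6R replicate 2, 4.1 without E6R replicate 1 and 4.61 in thinned cells. For E6R against DMSO the difference was 0.17 (SE 0.54, adjusted p = 0.9), and its sign changed in 4 alternatives. In cells thinned to 1000 UMIs, 1 cell in each TSA library carried a GFRA2 UMI (0.054% and 0.0359%), against 10 and 35 cells under DMSO (0.842% and 2.08%) and 13 and 49 under E6R (0.591% and 2.2%). Without thinning the shares were 1.56% and 2.62% under DMSO, 0.649% and 0.334% under TSA, and 2.73% and 7.1% under E6R. Without cells holding an endothelial or fibroblast UMI, GFRA2 was 8.43 and 19.6 CPM under DMSO, 0.808 and 1.17 under TSA and 6.59 and 22.2 under E6R, with a log2 fold change of -3.55 (adjusted p = 0.00807) for TSA. Of the 12 adrenergic markers 4 also fell under TSA, for example PHOX2A (-2.29, adjusted p = 0.00199) and TBX2 (-3.28, adjusted p = 0.000543), both named after their values were seen, where 13.5% of all genes fell. Others had higher means that did not pass, such as CHGA (0.79, adjusted p = 0.165) and HAND2 (0.41, adjusted p = 0.228). The list summed to 4129 and 4349 CPM under DMSO, 3976 and 4592 under TSA and 3743 and 6035 under E6R, and its part in the GFRA2 result was not tested.

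GFRA3, the coreceptor for artemin, had 14 and 8 UMIs under DMSO, 21 and 5 under TSA and 32 and 23 under E6R. Its levels of 2.97 and 1.53, 1.6 and 0.435, and 2.02 and 0.865 CPM overlapped between all groups. The adjusted p was 0.319 for TSA and 0.699 for E6R against DMSO. Detection of RET and a coreceptor in the same cell was also counted, but the data were too sparse to read pairs. In cells thinned to 1000 UMIs, 2, 1, 0, 0, 5 and 7 cells held both RET and GFRA2 in DMSO replicates 1 and 2, TSA replicates 1 and 2 and E6R replicates 1 and 2, and 2.6, 4.81, 0.095, 0.0968, 3.4 and 6.8 would hold both if the genes were detected independently.

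PTN, on the minus strand of chromosome 7 (137227341 to 137343865), was counted with 1325 to 9826 UMIs per library. Its level was 282 and 343 CPM under DMSO, 209 and 204 CPM under TSA, and 458 and 370 CPM under E6R. The groups did not overlap in any of the comparisons, with TSA lowest and E6R highest. PTN was 2-fold higher under E6R than under TSA (log2 fold change 1.0, SE 0.21, adjusted p = 0.00772). This call was lost without TSA replicate 1 (1.02, adjusted p = 0.0575) or TSA replicate 2 (0.98, adjusted p = 0.0707) and held in the other 18 alternatives. Neither difference from DMSO passed: it was -0.59 (SE 0.21, adjusted p = 0.0639) for TSA and 0.41 (SE 0.21, adjusted p = 0.351) for E6R. The TSA difference passed in 8 of 20 alternatives, with an adjusted p between 0.0163 and 0.276. It was largest, -0.9 (adjusted p = 0.0165), with libraries scaled by total counts alone. In thinned cells the share with a PTN UMI was 24.6% and 29.7% under DMSO, 18.3% and 14.8% under TSA, and 30.7% and 28.2% under E6R, so the TSA shares were below all others and DMSO and E6R overlapped. Without thinning the shares were 34.3% and 35.3%, 36.7% and 31.3%, and 54.4% and 42.7%.

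MDK, on the plus strand of chromosome 11 (46380756 to 46383837), was at 64.2 and 95.6 CPM under DMSO, 70.7 and 60.2 under TSA and 58.6 and 155 under E6R. The E6R libraries were the lowest and the highest of the 6, and all groups overlapped. Log2 fold changes were -0.29 (SE 0.42, adjusted p = 0.629) for TSA against DMSO, 0.42 (SE 0.42, adjusted p = 0.635) for E6R against DMSO and 0.71 (SE 0.42, adjusted p = 0.213) for E6R against TSA. Without E6R replicate 2 the last became -0.14 (adjusted p = 0.723), and without E6R replicate 1 it was 1.32 (adjusted p = 0.00485). In E6R replicate 2 a single cell held 193 MDK UMIs, and the 10 cells with most MDK UMIs held 16.9% of the total. The thinned share of cells was still the highest there, 13.7%, against 5.5% in E6R replicate 1, 7.41% and 8.98% under DMSO and 5.72% and 4.7% under TSA. Without thinning the shares were 27.7% and 15.7%, 11.4% and 12.4%, and 16.5% and 12.3% in the same order.

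**Figure D4:**
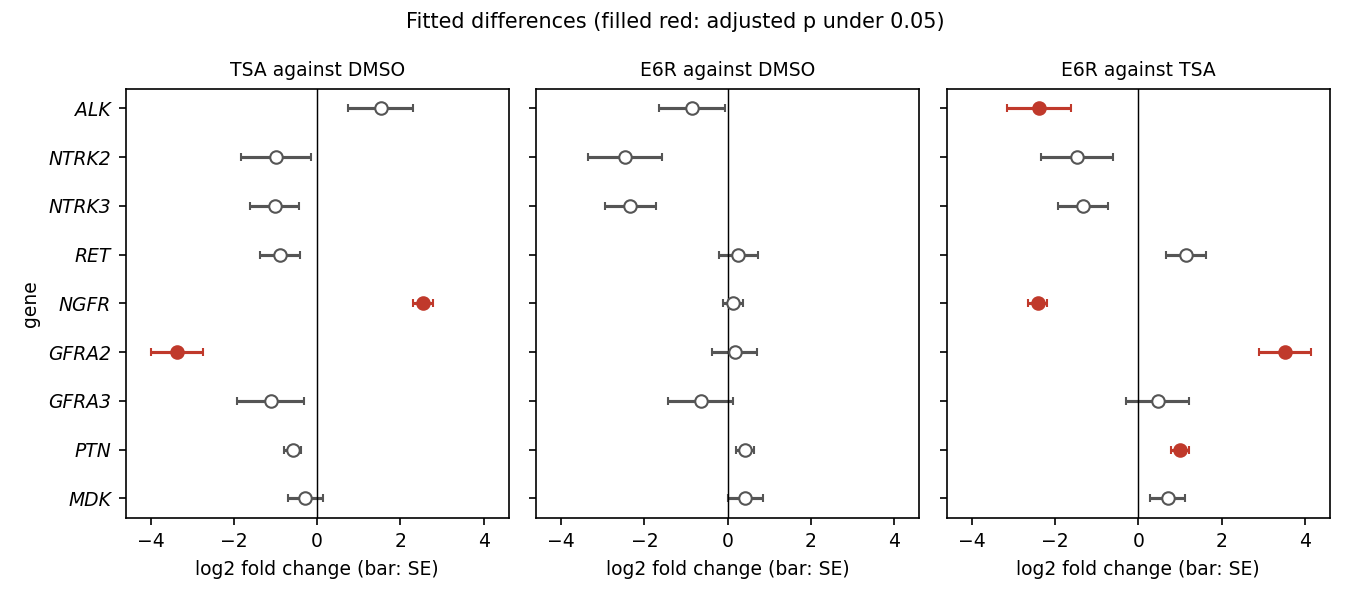
Log2 fold change of the 9 genes with its standard error in the 3 comparisons; filled red points have an adjusted p under 0.05. NGFR and GFRA2 are filled for TSA against DMSO, no gene is filled for E6R against DMSO, and ALK, NGFR, GFRA2 and PTN are filled for E6R against TSA.

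The sequences upstream of ALK and PTN are shown. They come from the RefSeq promoter table (GRCh38.p14), which held 6 of the 9 genes and not NGFR, GFRA2 or MDK. Of the genes called in any comparison, only ALK and PTN were in it. Whether base composition goes with the direction of change was not tested. The window was the 250 bases before the first listed start, searched on both strands for CACGTG (E-box), GGGCGG (GC box), CCAAT and TATAAA. Matches were counted singly where they overlap, and none overlap in the lines printed. Capitals mark matches. The PTN line stops where the GENCODE gene begins, at 118 bases.
ALK, chr2:29921587-29921836, minus strand: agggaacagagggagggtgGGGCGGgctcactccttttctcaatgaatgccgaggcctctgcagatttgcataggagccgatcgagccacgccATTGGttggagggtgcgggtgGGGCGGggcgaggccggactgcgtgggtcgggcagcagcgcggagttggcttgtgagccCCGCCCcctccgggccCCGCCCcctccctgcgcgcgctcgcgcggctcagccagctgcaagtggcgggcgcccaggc
PTN, chr7:137343866-137343983, minus strand: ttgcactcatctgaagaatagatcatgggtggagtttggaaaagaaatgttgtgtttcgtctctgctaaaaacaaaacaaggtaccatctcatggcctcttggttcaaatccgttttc

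The ALK window was 71.6% G and C and held 4 GC boxes and 1 CCAAT box. The full PTN window was 50.4% G and C and held no GC box and 1 CCAAT box, which lies downstream of the printed stretch. The median over 35116 promoters of the table was 58%, and 42.6% of them held GGGCGG, 32% CCAAT, 6.34% CACGTG and 10.7% TATAAA. RET held 5 GGGCGG matches, some overlapping (79.6% G and C), NTRK3 held 2 (73.2%), and NTRK2 and GFRA3 held 1 each (50% and 59.2%). None of these 6 windows held CACGTG or TATAAA. A match of letters is not evidence of binding, and no factor was measured.

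Within each library, both ligands were lower in cells with a large share of mitosis transcripts. Cells with at least 1000 UMIs were ranked by the share of their UMIs from 17 mitosis genes such as MKI67 and TOP2A, and the 25% of cells with the largest share (mitosis-high) and the 25% with the smallest (mitosis-low) were compared, 296 to 697 cells each. This is a range of a score and not a cell type. The PTN level in mitosis-high and mitosis-low cells was 308 and 375 CPM in DMSO replicate 1, 387 and 447 in DMSO replicate 2, 160 and 259 in TSA replicate 1, 163 and 196 in TSA replicate 2, 446 and 535 in E6R replicate 1, and 360 and 445 in E6R replicate 2. It was lower in 6 of 6 libraries, with a median log2 ratio of -0.28 (from -0.69 to -0.21). MDK was also lower in 6 of 6 libraries (median -0.33, from -0.9 to -0.07), and with 50% of cells on each side both were again lower in 6 of 6. NGFR was lower in 5 of 6 libraries (median -0.82), and with 50% of cells on each side in 4 of 6 (median -0.32), DMSO replicate 2 being higher (0.16). With 25% on each side, in the DMSO and E6R libraries it went from between 10.5 and 18.1 CPM down to between 5.41 and 7.82 CPM, on 5 to 11 UMIs a set under DMSO, and in the TSA replicates it was 54.5 and 59.8, and 50.8 and 49.5 CPM in mitosis-high and mitosis-low cells. RET was 0.08 lower at the median, in 5 of 6 libraries with 25% of cells on each side and 3 of 6 with 50%. GFRA2 was higher in mitosis-high cells in 5 of 6 libraries with 25% on each side. That split had 4 and 0 UMIs in TSA replicate 2 and is too sparse to read there. With 50% on each side GFRA2 was higher in 6 of 6 libraries (median 0.51, from 0.12 to 0.56), on as few as 4 UMIs a set. The remaining genes were too sparse to read, with 0 or 1 UMI in a set of 25%. Median UMIs per cell also differed between the 2 sets, for example 2171 in mitosis-high and 3146 in mitosis-low cells of E6R replicate 2. No test was made over cells, and the part of depth was not tested.

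**Figure D5:**
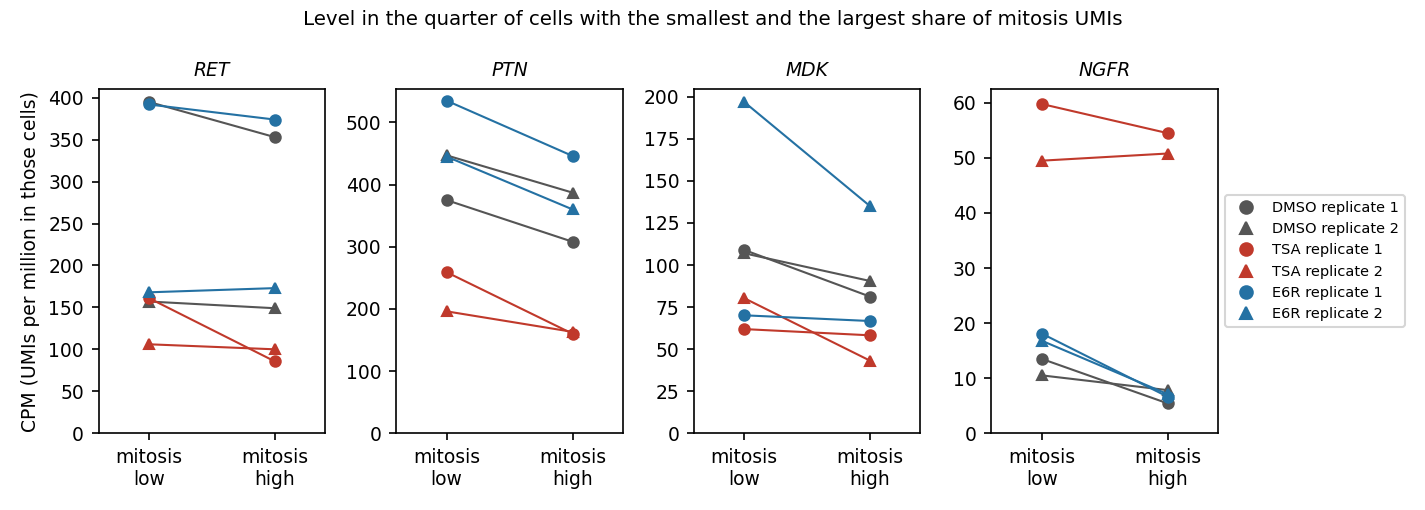
CPM (plain UMI sums, axes from 0) of RET, PTN, MDK and NGFR in the 25% of cells with the smallest (left) and the 25% with the largest (right) share of mitosis UMIs, 1 line per library. All 6 PTN lines and all 6 MDK lines go down, and the 2 TSA lines of NGFR stay near 50 to 60 CPM.

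The genes whose level over the 6 libraries was most like each of the 4 genes with a mean of at least 20 CPM were found among 7515 genes, by the root mean square difference of centred log2 CPM. For NGFR they included ODC1 (0.12) and AGFG2 (0.151). ODC1, for example, was at 194 and 255 CPM under DMSO, 1102 and 1112 under TSA and 250 and 238 under E6R. For RET they were SDC2 (0.122), NFIX (0.162) and GLUL (0.178), and SDC2 followed the replicate number too, with 83.9 and 41.7, 37.8 and 33.9, and 124 and 43.7 CPM. For PTN they were KBTBD2 (0.0859), HNRNPR (0.0862) and NDUFB7 (0.0921), and for MDK RIMS4 (0.108), CRCP (0.139) and PNP (0.162).

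Other genes of these pathways were described from 7 lists of 79 genes, 65 of which were tested. Under TSA 12 rose and 12 fell, 24 of 65 where 29.7% of all genes were called, with a median log2 fold change of 0.08 (-0.01 over all genes). None passed for E6R against DMSO by edgeR, with 9 at an unadjusted p under 0.05 and 1 called by DESeq2. Against TSA 16 were higher and 14 lower under E6R, 30 of 65 where 38.2% of all genes were called. Several ligands and partners were close to absent: ALKAL1 and ALKAL2, the ligands of ALK, were at 0 in every library, and NTF3, NTF4, GFRA1 and PTPRZ1, a receptor for PTN, had at most 5 UMIs in any library. With 0 UMIs, a floor of 3 molecules in the library sum applies, and free ligand in the medium is not seen by this assay.

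Among the 9 tested neurotrophin receptors and adaptors of p75, 2 rose and 1 fell under TSA, where 16.2% of all genes rose and 13.5% fell. SORT1, the sortilin that pairs with p75, rose with NGFR from 65.4 and 108 CPM under DMSO to 260 and 277 CPM under TSA (log2 fold change 1.63, adjusted p = 0.00401), and was 85 and 87.2 CPM under E6R. SORCS1, a sortilin relative, rose by 0.88 (adjusted p = 0.0309). Against TSA, the p75 interactors BEX3 (1.15, adjusted p = 0.0049) and MAGED1 (1.02, adjusted p = 0.029) were higher under E6R, and SORT1 was lower (-1.64, adjusted p = 0.00239). BEX3 and MAGED1 did not pass for TSA or for E6R against DMSO.

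Of the GDNF family list 4 genes were tested, and NCAM1, an alternative partner of GDNF, rose under TSA from 771 and 655 CPM to 1854 and 1829 CPM (1.37, adjusted p = 0.0127). Under E6R NCAM1 was at 500 and 919 CPM, lower than under TSA (-1.38, adjusted p = 0.00905). LTK, the kinase closest to ALK, was at 17.2 and 11.1, 39.6 and 18.5, and 14 and 6.73 CPM, with TSA highest as for ALK. It passed for E6R against TSA alone (-1.49, adjusted p = 0.0398, held in 10 alternatives), and is named after its value was seen. Among 10 tested receptors of PTN and MDK, 2 rose and 0 fell under TSA, where 16.2% of all genes rose and 13.5% fell. LRP1 rose (2.19, adjusted p = 0.00738) from 8.07 and 12.6 CPM to 41.2 and 53.6 CPM. The glypican GPC2 also rose (1.74, adjusted p = 0.0222), and is named because it was the other gene called. Against TSA, LRP1 and GPC2 were lower under E6R and the syndecan SDC1 was higher (1.69, adjusted p = 0.0169). SDC1 did not pass for TSA or for E6R against DMSO.

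Among 20 tested adaptors that link these receptors to RAS, 3 rose and 5 fell under TSA, where 16.2% of all genes rose and 13.5% fell. DOK4, which binds activated RET, fell from 1198 and 865 CPM to 209 and 205 CPM (-2.32, adjusted p = 0.00112), and was 1130 and 938 CPM under E6R. SHC3, an SHC adaptor of neurons, fell by 1.75 (adjusted p = 0.00284), and the RAS exchange factor SOS2 fell by 1.69 (adjusted p = 0.00532). KIDINS220, a scaffold of TRK and p75 receptors, rose by 1.4 (adjusted p = 0.00366) from 184 and 220 CPM to 512 and 553 CPM. GRB2, which brings SOS proteins to the receptors, was at 306 and 339, 686 and 770, and 263 and 282 CPM, lower under E6R than under TSA (-1.42, adjusted p = 0.00147).

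Genes that respond to the ERK pathway did not move in 1 direction under TSA: 4 of 20 rose and 6 fell, against the same 16.2% and 13.5% of all genes. The immediate early genes FOS (from 23.2 and 6.12 CPM to 234 and 247 CPM; 4.05, adjusted p = 0.00185), EGR1 (2.26, adjusted p = 0.0109) and IER3 (2.17, adjusted p = 0.00178) rose. CCND1, which encodes cyclin D1, fell from 925 and 1082 CPM to 137 and 125 CPM (-2.93, adjusted p = 0.000489). SPRY2, a feedback inhibitor of receptor kinases, fell under TSA (-1.76, adjusted p = 0.0292). It was higher under E6R than under TSA (2.09, adjusted p = 0.0114) and did not pass for E6R against DMSO (0.33, adjusted p = 0.752). Under E6R, FOS was at 15.8 and 14.8 CPM and CCND1 at 1418 and 1422 CPM, and neither passed against DMSO (adjusted p = 0.952 and 0.254).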

How the data were processed

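Single-cell RNA was measured in 6 libraries of SK-N-BE(2)-C cells, 2 per treatment. The authors deposited whole-number UMI counts per gene and barcode, not normalized. The submitters' processing notes name STARsolo 2.7.9a and GRCh38; annotation, strand setting and barcode rule are not given in the sources used here. No doublet caller was run. Library sums of the cells' counts were fitted with edgeR 4.0.16 (R 4.3.3): TMM, filterByExpr, group as the only term, all 6 libraries in 1 fit, script tested on simulated data. DESeq2 1.42.0 was an alternative. Standard errors came from the F statistic. Of the gene identifiers, 94.6% were in GENCODE 29, used for coordinates. CPM in small barcodes, in mitosis-high and mitosis-low cells and without endothelial or fibroblast UMIs used plain UMI sums. Depth limits genes with few UMIs: a count of 0 allows up to 3 molecules.

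The 9 genes, the lists and 17 of the alternatives were chosen with earlier results of these data known, and 3 alternatives were added after the data were seen. Named pathway genes were those called with a mean of at least 20 CPM, at most the 4 largest by log2 fold change per list and comparison. Outside this rule, LTK and GPC2 (means of 17.8 and 11 CPM) and the genes close to absent were named as well. Some genes that these rules or lists select are not reported here.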

Additional observations from a re-analysis of the deposited data

Results flagged for a closer look

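Barcodes with under 500 genes took no part in the comparisons. For 3 genes both libraries of a treated group lay above both DMSO libraries there, and they are listed by that rule. The share of all genes meeting it in small barcodes was not computed. In the cells, 71.3% (TSA) and 47.3% (E6R) of all genes tested did not overlap with DMSO, in either direction, so such a separation is common. In the cells NGFR passed the test against DMSO, while ALK under TSA (adjusted p = 0.173) and PTN under E6R (adjusted p = 0.351) did not. ALK had a mean of 9.11 CPM in the small barcodes of the TSA libraries (7.52 and 10.7), against 1.78 and 6.9 under DMSO. NGFR had a mean of 41 CPM under TSA (43.8 and 38.2), against 4.88 and 17.2 under DMSO. PTN had a mean of 424 CPM under E6R (473 and 374), against 274 and 346 under DMSO. These differences were not tested.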

How the results depend on the processing

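Of the 20 alternatives, 17 were planned and 3 were added after the data were seen. The TSA calls of NGFR held in all 20, and those of GFRA2 in 18. In fits that left out 1 library, where a lone sample is assumed to vary like the other groups, 1 to 3 of the 9 genes were called for TSA against DMSO, none for E6R against DMSO and 2 to 5 for E6R against TSA, and 1416 to 6028, 0 to 3 and 2628 to 6385 genes in all. Without the low-count filter the 9 genes gave 5, 1 and 6 calls in the 3 comparisons, where 5908, 1095 and 7572 of 31532 genes were called. For E6R against DMSO the count of genes called was 415 by DESeq2 and 1 with all deposited barcodes. It was also 1 without cells of a shared barcode and 1 without mitochondrial genes. In cells thinned to 1000 UMIs 4105 genes passed for E6R against TSA.

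Scaling by total counts alone moved the median log2 fold change of all genes for TSA against DMSO from -0.01 to -0.32, and the calls from 2720 higher and 2255 lower to 1717 and 3361. It turned the direction of none of the 9 genes. For E6R against DMSO the sign turned for GFRA2 (-0.22 in cells thinned to 1000 UMIs, -0.05 with library sums thinned to the smallest), NGFR (-0.21 in cells thinned to 1000 UMIs, -0.5 without the 5% of cells with most UMIs, -0.5 without endothelial or fibroblast UMIs) and RET (-0.01 in thinned cells). With 1 library left out, it ran from -1.86 to 1.09 for ALK, -0.57 to 1.05 for GFRA2, -1.26 to 0.03 for GFRA3, -0.41 to 1.06 for MDK and -0.38 to 1.19 for RET, and for E6R against TSA from -0.17 to 1.7 for GFRA3 and -0.14 to 1.32 for MDK. The cause was not tested.

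The groups share replicate numbers 1 and 2, and nothing says what a number stands for. Deviations of same-numbered libraries correlated at r = 0.242 (DMSO and TSA), 0.564 (DMSO and E6R) and 0.166 (TSA and E6R) over 7515 genes, which are not independent. With the replicate block, 4, 0 and 5 of the 9 genes passed in the 3 comparisons (ALK and PTN added for TSA against DMSO, RET for E6R against TSA), and 6047, 19 and 7567 genes in all.

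The share of cells with a UMI moved with thinning. In cells thinned to 1000 UMIs the log2 ratio of TSA to DMSO was 0.06 for ALK (mean shares 0.692% and 0.661%). There it was -5.02 for GFRA2, -0.65 for MDK, 2.32 for NGFR, -0.71 for PTN, -1.05 for RET, -0.29 for NTRK3 and 0.18 for NTRK2. Without thinning it was 2.57 for ALK, -2.09 for GFRA2, 0.28 for MDK, 2.99 for NGFR, -0.03 for PTN and -0.01 for RET. In cells thinned to 500 UMIs it was -2.32 for GFRA2, 1.86 for NGFR, -1.57 for NTRK3 and -2.19 for NTRK2. The last is not to be read as a change, since 0% and 0.0304% of TSA cells held a UMI. For E6R to DMSO the log2 ratio at 1000 UMIs was -2.55 for ALK, -0.93 for GFRA3, -0.16 for NGFR, -2.62 for NTRK3 and 0.12 for PTN. Without thinning it was 0.77 for ALK, 0.47 for GFRA3, 0.83 for NGFR, -0.74 for NTRK3 and 0.48 for PTN. At 500 UMIs it was -0.43 for GFRA3, -0.62 for NGFR and -2.17 for NTRK3. Depth limits NTRK2, NTRK3, GFRA3 and ALK most.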
